A study of Mus musculus with 2 samples.

Results

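The membrane-spanning 4A (MS4A) genes Ms4a4c, Ms4a6b, Ms4a6c, Ms4a6d and Ms4a7 were followed across the leukocytes of 2 mouse melanomas. They were chosen by symbol and all 5 were present among the 12584 genes of the matrix, which holds 11 genes named Ms4a in all. The tumours grew under the skin of C57BL/6 mice from YUMM3.3, a mouse melanoma line with mutant Braf and no Cdkn2a, and were taken on day 12 according to the series record, while the study's methods give an earlier day for its single-cell experiments. The NTT tumour came from the therapy-naive line. The RTT tumour came from a derivative of the same line that is resistant to targeted therapy and was kept in culture in dabrafenib, a BRAF inhibitor. The comparison asks how leukocytes differ between a naive and a drug-resistant melanoma. Live CD45+ cells (leukocytes) were sorted and profiled by droplet 3′ sequencing, in which each captured RNA molecule is counted once by its unique molecular identifier (UMI). There was 1 tumour and 1 library per group, so the line, its drug exposure, the mouse, the sort and the library cannot be told apart, and no test between groups was possible. Intervals given here are exact 95% intervals and cover counting error only.

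MS4A proteins cross the membrane repeatedly and some of them act beside signalling receptors. The family holds CD20 (Ms4a1), the marker of B cells, and the beta chain of the high-affinity IgE receptor (Ms4a2) of mast cells. In myeloid cells, Ms4a7 is known as a gene of tissue macrophages that is low in blood monocytes, Ms4a4c is commonly listed among the genes that rise after interferon, and the Ms4a6 genes are known from monocytes and macrophages. Monocytes that enter a tumour can become macrophages, so the family has members on both sides of that step.

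The 5 genes lie in 1 cluster of 284 kb on mouse chromosome 19 (chr19:11321039-11604849, mm10, GENCODE annotation), which holds 8 Ms4a genes. Ms4a7 spans chr19:11321039-11336146 on the minus strand, Ms4a4c chr19:11404770-11427246 on the plus strand, Ms4a6c chr19:11469366-11482192 on the plus strand, Ms4a6b chr19:11516512-11531256 on the plus strand and Ms4a6d chr19:11586604-11604849 on the minus strand. The 250 bases before the annotated start are shown for 4 of the 5 genes (RefSeq, GRCm38.p6, 5′ to 3′ on the gene's strand), because Ms4a4c and Ms4a7 moved in opposite directions between the tumours and Ms4a6b and Ms4a6c are a closely related pair. They are chr19:11407411-11407660 for Ms4a4c, chr19:11336147-11336396 for Ms4a7, chr19:11469118-11469367 for Ms4a6c and chr19:11518309-11518558 for Ms4a6b. The windows of Ms4a4c and Ms4a6b lie inside the gene spans above, because RefSeq places these starts further along than GENCODE. Bases before the GENCODE starts of these genes were not searched. Capitals mark a PU box in Ms4a4c, and runs of at least 20 bases shared by the other pair in Ms4a6c and Ms4a6b.
Ms4a4c: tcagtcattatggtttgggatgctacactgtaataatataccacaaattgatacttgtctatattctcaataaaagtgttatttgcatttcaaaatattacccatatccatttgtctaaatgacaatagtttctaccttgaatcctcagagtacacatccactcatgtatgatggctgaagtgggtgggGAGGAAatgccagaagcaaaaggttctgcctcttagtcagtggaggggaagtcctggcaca
Ms4a7: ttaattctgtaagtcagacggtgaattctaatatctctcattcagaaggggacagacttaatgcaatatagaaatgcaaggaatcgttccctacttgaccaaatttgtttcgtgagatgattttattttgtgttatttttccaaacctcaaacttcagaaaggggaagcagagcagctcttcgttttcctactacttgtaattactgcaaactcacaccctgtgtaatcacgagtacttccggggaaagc
Ms4a6c: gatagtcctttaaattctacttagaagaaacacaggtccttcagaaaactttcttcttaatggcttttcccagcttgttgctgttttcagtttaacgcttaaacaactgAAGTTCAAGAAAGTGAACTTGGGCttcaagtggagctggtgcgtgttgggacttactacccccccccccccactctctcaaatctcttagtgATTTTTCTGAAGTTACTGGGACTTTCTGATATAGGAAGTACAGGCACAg
Ms4a6b: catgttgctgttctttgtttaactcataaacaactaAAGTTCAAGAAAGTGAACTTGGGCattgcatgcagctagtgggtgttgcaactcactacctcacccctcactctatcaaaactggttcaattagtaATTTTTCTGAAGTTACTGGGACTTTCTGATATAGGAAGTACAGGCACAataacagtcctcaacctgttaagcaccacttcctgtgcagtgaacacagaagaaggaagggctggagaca

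Ms4a6b and Ms4a6c shared 2 runs before their starts, which covered 72 of 250 bases (28.8%) with a longest run of 48. A 20-base piece of these runs was found on the gene's strand in 0 of 32849 other windows of the same length. The windows were searched on both strands for 3 motifs. GAAANNGAAA, the interferon-stimulated response element, was in none of the 5 member windows (Ms4a7 has a second start) and in 2.98% of 32851 windows of all genes. TTCNNNGAA, the interferon-gamma activated site, was also in none, against 7.02% of all windows. GAGGAA, the PU box that the myeloid factor PU.1 can bind, was in 1 of the 5, in Ms4a4c 61 bases before the start, against 23.3% of all windows. A match or its absence describes these letters in this window and nothing further.

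Likeness between paralogs also bears on counting, since 3′ libraries read the end of a transcript. Of all 31-base pieces in the last 500 bases of Ms4a4c transcripts, 21.7% also occurred in another gene of the family, most often Ms4a4b. The shared part was 15.5% for Ms4a6c and 3.19% for Ms4a6b, in both cases most often with each other, and 0 for Ms4a6d and Ms4a7. Values of Ms4a4c, Ms4a6c and Ms4a6b are therefore less certain than those of Ms4a6d and Ms4a7.

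The NTT library held 2975 cells with a median of 5398 UMIs and the RTT library 4840 cells with a median of 8336 UMIs. The 2 libraries shared 7 cell barcodes. The cells fall under 16 population names in the deposited annotation. The names were given to clusters of cells that include these, so levels by population are a description. Levels are in CPM, a gene's summed UMIs scaled to 1000000 UMIs of those cells, and each gene or marker list is compared with itself across cells. Macrophage markers were high under some labels of other cells. In Monocyte_1 the summed level of 7 macrophage markers was 18203 CPM (NTT) and 17114 CPM (RTT), while in TAM_Spp1 it was 8324 and 21350.3 CPM. The 5 monocyte markers were at 5336 (NTT) and 3512 CPM (RTT) in Monocyte_1, and at 6850 (NTT) and 2299 CPM (RTT) in TAM_Spp1. Infl_Mono, the inflammatory monocytes, held macrophage markers at 8091 CPM in the NTT library and 32493 CPM in the RTT library, while its monocyte markers were at 11725 and 3814 CPM. In RTT, the 29 cells named Neutro carried 39329 CPM of macrophage markers (5429 CPM in NTT) and 15892 CPM of 4 neutrophil markers (73743 CPM in NTT), and the 51 NK cells carried 3331 CPM of macrophage markers against 353 CPM in NTT. The label NK_cells also held 4 T-cell markers at 4212 CPM in NTT and 3059 CPM in RTT. Its cells are called NK cells here by label only. Because macrophage transcripts moved with these labels, the ratios in monocytes, dendritic cells and NK cells were also computed for cells with C1qa, C1qb and C1qc together under 1000 CPM, called C1q-low here. They are printed where they change a call or a direction or move the ratio by over 1.5 times. These 3 genes encode the complement component C1q, which tumour macrophages make.

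Ms4a4c was the member with the largest difference between the tumours. Over all cells it was at 1477 CPM in NTT and 137 CPM in RTT, 10.8-fold lower in RTT (log2 −3.43, interval −3.47 to −3.39). The NTT level was highest in Infl_Mono (2940.3 CPM), followed by Monocyte_1 (2163 CPM) and cDC2, the conventional type 2 dendritic cells (1848 CPM). Tumour-associated macrophages of NTT were lower, at 829 CPM in TAM_Spp1, 751 CPM in TAM_H2Ab1 and 397 CPM in TAM_cycling. TAM_H2Ab1 did not differ from Neutro (711 CPM), nor Neutro from Macro (686 CPM), beyond counting error. In RTT, Monocyte_1 (1153 CPM) and Infl_Mono (1111 CPM) led and did not differ from each other beyond counting error, and cDC2 followed at 340.2 CPM. TAM_C1q, the largest RTT population with 2001 cells, was at 70.2 CPM.

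**Figure D1:**
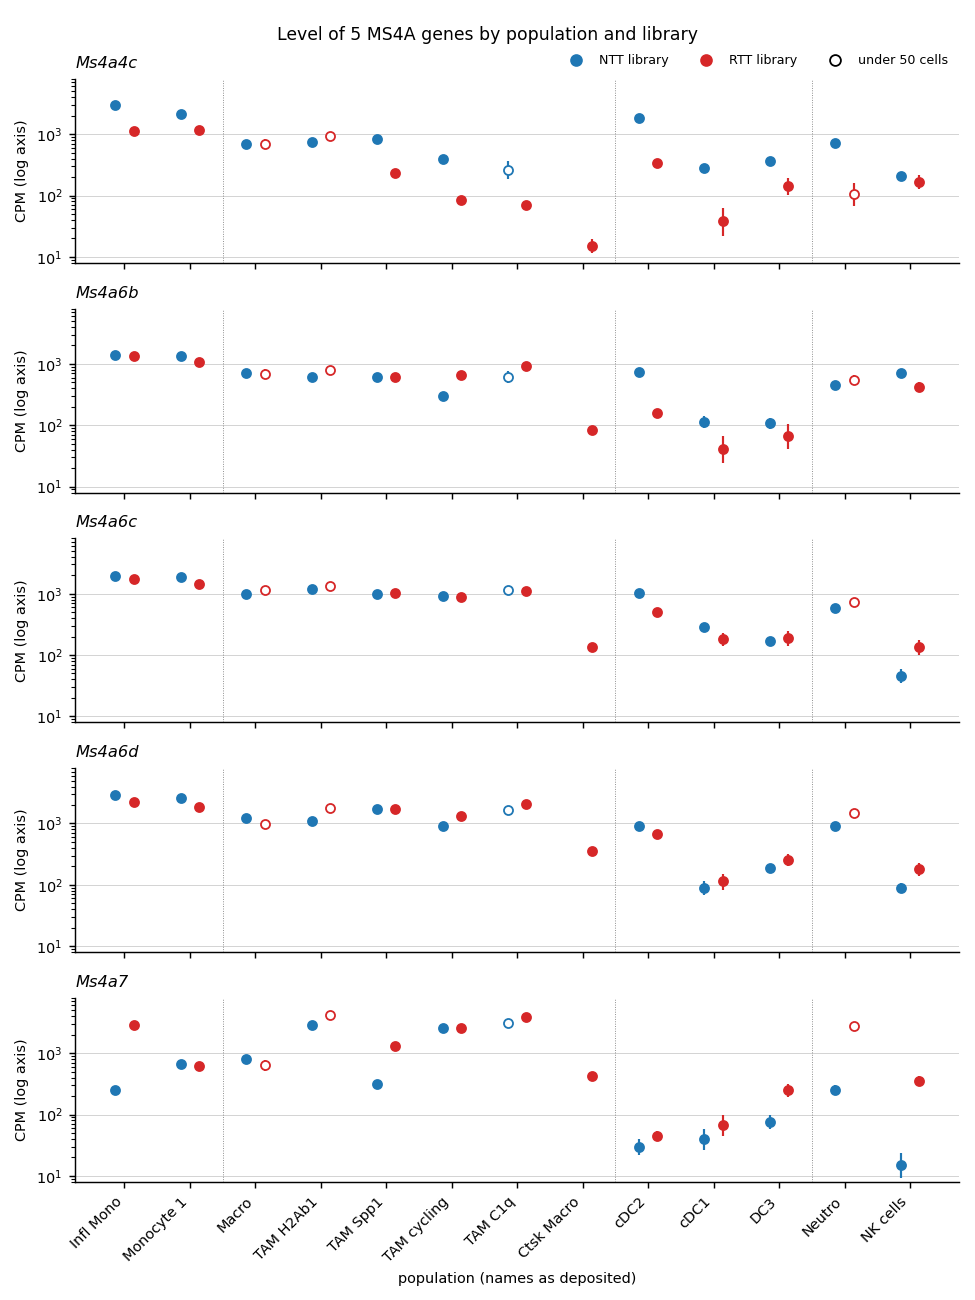
Level of each of the 5 members by population in CPM (log axis), with the NTT and RTT libraries in separate colours, exact 95% Poisson intervals as bars and open symbols for populations under 50 cells. Ms4a4c peaked at 2940.3 CPM in NTT Infl_Mono, and Ms4a7 in RTT stood at 3826 CPM in TAM_C1q.

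Ms4a4c was lower in RTT in each of the 8 populations with at least 50 cells in both libraries, by 2-fold or more in 6 of them. In Infl_Mono it was at 2940.3 CPM in NTT and 1111 CPM in RTT (log2 −1.40, −1.52 to −1.29). In Monocyte_1 the levels were 2163 and 1153 CPM (log2 −0.91). Dendritic cells showed larger differences, with 1848 CPM against 340.2 CPM in cDC2 (log2 −2.44) and 281 CPM against 38.7 CPM in cDC1, the cross-presenting type 1 cells (log2 −2.86, −3.70 to −2.12). In macrophages the levels were 829 and 231 CPM in TAM_Spp1 (log2 −1.84), and 397 and 83.5 CPM in TAM_cycling (log2 −2.25). The TAM_Spp1 label held more monocyte markers in NTT than in RTT, as given above. The DC3 label carried 3 markers of mature dendritic cells (Ccr7, Fscn1 and Ccl22) at 5542 CPM in NTT and 7731 CPM in RTT. In cDC2 the same markers were at 34.6 and 32.8 CPM. In DC3 (364 and 141 CPM of Ms4a4c) 34 of the 40 RTT UMIs came from 1 cell. Without C1q-high cells, the log2 ratio of Ms4a4c was −0.68 in Infl_Mono and −0.94 in DC3, both under 2-fold. The DC3 value still rests on the cell with 34 UMIs, which is C1q-low. RTT DC3 was at 172.7 CPM in C1q-low and 62.2 CPM in C1q-high cells. Among these 8 populations, the interval included 0 only in NK cells (210.3 and 168 CPM, log2 −0.32, −0.74 to 0.08), which are not myeloid.

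The same direction was seen in the 3 myeloid classes, each a sum over populations. The macrophage class held different populations in each tumour, with TAM_C1q at 17 of 582 cells in NTT and 2001 of 4009 in RTT, and TAM_H2Ab1 at 169 and 36, so the makeup of the class weighs on its ratio, which for Ms4a4c was larger than in TAM_Spp1 or TAM_cycling. Ms4a4c was at 2439 CPM in NTT and 1124 CPM in RTT in monocytes (log2 −1.12, −1.20 to −1.04), at 633 and 97.2 CPM in macrophages (log2 −2.70, −2.77 to −2.64), and at 1151 and 285 CPM in dendritic cells (log2 −2.02, −2.12 to −1.91). A difference of 2-fold or more in CPM is called here. Among the genes with enough UMIs to compare, the share called lower in RTT was 9.6% over all cells, 6.74% in monocytes, 6.18% in macrophages and 7.56% in dendritic cells. Against these, Ms4a4c was the only one of the 5 members called lower over all cells, in monocytes and in macrophages, and it was joined by Ms4a6b in dendritic cells. The monocyte call depended on the cells counted: in C1q-low monocytes the levels were 2409 CPM in NTT and 1659 CPM in RTT (log2 −0.54), under 2-fold.

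The share of cells with a UMI gave the same direction. With each cell thinned to 2000 UMIs, 74.6% of NTT cells and 19.3% of RTT cells held a Ms4a4c UMI (84.97% and 37.9% without thinning). Thinning left out 107 NTT and 63 RTT cells that were shallower. In TAM_Spp1 the thinned share was 71.7% in NTT and 34.6% in RTT, in TAM_cycling 48.5% and 13.1%, and in cDC2 80.7% and 31.9%. Infl_Mono kept a high share in both, at 92.1% and 79.3%. The number of UMIs per Infl_Mono cell differed more, since 44.1% of NTT cells and 14.1% of RTT cells had 6 or more Ms4a4c UMIs after thinning.

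Ms4a7 ran the other way. Over all cells it was at 869 CPM in NTT and 2544 CPM in RTT, 2.93-fold higher in RTT (log2 1.55, 1.53 to 1.57). Among populations of at least 50 cells, it was highest in NTT in TAM_H2Ab1 (2872 CPM) and TAM_cycling (2531 CPM), far above Macro (811 CPM) and Monocyte_1 (656 CPM), and at 15.1 CPM in NK cells. In RTT it was highest in TAM_C1q (3826 CPM), followed by Infl_Mono (2869.8 CPM) and TAM_cycling (2622 CPM). Dendritic cells were low in both, with 29.9 CPM in NTT and 44.6 CPM in RTT in cDC2. The study lists Ms4a7 among the leading genes of TAM_C1q and TAM_H2Ab1, and Ms4a4c among those of Infl_Mono and Monocyte_1. Its legend gives that list for tumours of another mouse melanoma line. The population names were given to clusters that include the present cells, so a high level under a name is no independent finding.

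Within a population, the Ms4a7 difference varied widely. TAM_cycling was at 2531 CPM in NTT and 2622 CPM in RTT (log2 0.05). Monocyte_1 was at 656 and 628 CPM (log2 −0.06, −0.23 to 0.10). TAM_Spp1, macrophages marked by the secreted protein osteopontin (Spp1), was at 309 CPM in NTT and 1310.2 CPM in RTT (log2 2.08, 1.92 to 2.25). Under this label, NTT cells held higher monocyte and lower macrophage markers than RTT cells, so the label may not cover the same cells in both. Infl_Mono was at 252 and 2869.8 CPM, 11.4-fold higher in RTT (log2 3.51, 3.39 to 3.63). Of the 8 populations, the interval lay above 0 in 6, and 4 were called higher. Of these 4, NK cells (15.1 and 358 CPM) owed 83 of 132 RTT UMIs (62.9%) to 1 cell, and DC3 (76.1 and 251 CPM) owed 54.9% of its RTT UMIs to 1 cell.

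**Figure D2:**
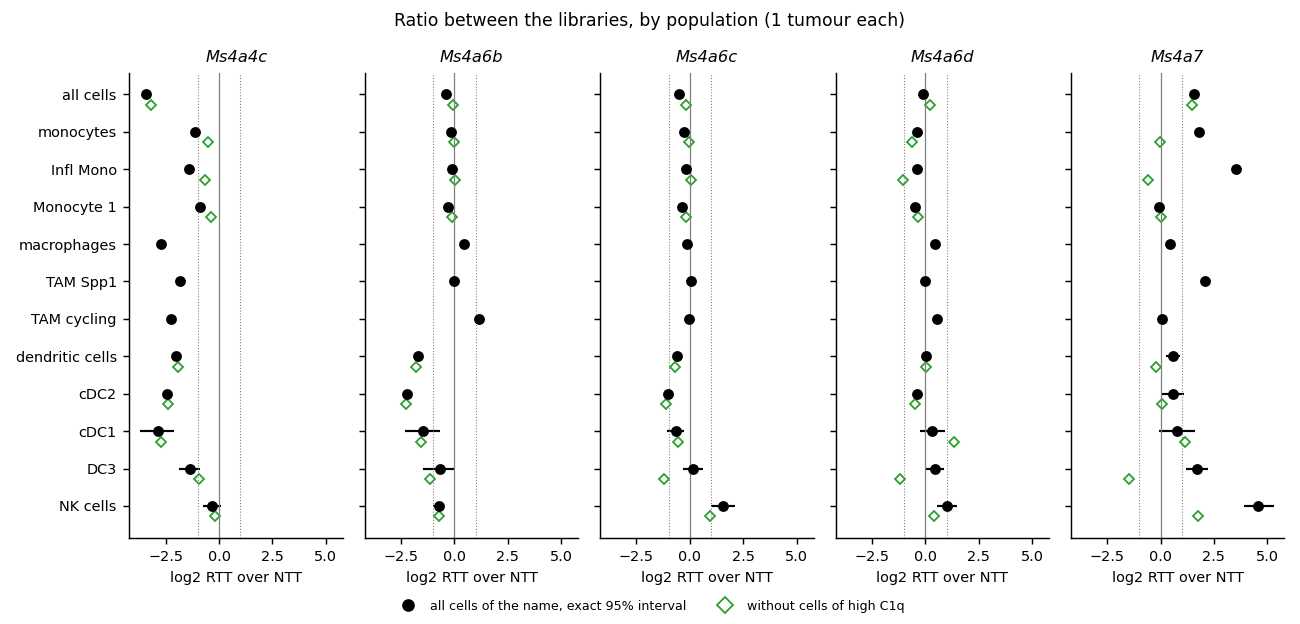
log2 of the RTT over NTT ratio of CPM (horizontal axis) for each member over all cells, in 3 classes and in the 8 populations with at least 50 cells in both libraries, with exact 95% intervals as bars, dotted lines at 2-fold and open green diamonds for the value without cells of high C1q. Ms4a4c lies to the left of 0 throughout, and Ms4a7 reaches 3.51 in Infl_Mono, where its diamond lies at −0.57. The diamonds over all cells still include every macrophage.

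By class, Ms4a7 was at 506 CPM in NTT and 1782 CPM in RTT in monocytes (log2 1.82, 1.74 to 1.89), at 2087 and 2813 CPM in macrophages (log2 0.43, 0.40 to 0.46), and at 43.5 and 65.5 CPM in dendritic cells (log2 0.59, 0.27 to 0.91). In C1q-low dendritic cells the log2 ratio of Ms4a7 was −0.23. The share of genes called higher in RTT was 8.18% over all cells, 2.97% in monocytes, 4.61% in macrophages and 4.83% in dendritic cells. Ms4a7 was the only member called higher over all cells and in monocytes, and no member was called higher in macrophages or dendritic cells.

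The Infl_Mono difference in Ms4a7 lay in the cells with high C1q. Because Ms4a7 followed C1q over the populations, as given below, leaving out C1q-high cells also takes out cells rich in Ms4a7. The split therefore describes which cells held the Ms4a7 UMIs and is no separate test. In RTT, 48 of 94 Infl_Mono cells (51.1%) were at or above 1000 CPM of C1q and held 4107 CPM of Ms4a7, while the other 46 held 72.0 CPM. In NTT, 200 of 620 cells (32.3%) were at or above it, with 533 CPM of Ms4a7 against 107 CPM in the others. For C1q-low Infl_Mono cells the log2 ratio was −0.57, with an interval that included 0 (−1.50 to 0.24), and for C1q-low monocytes as a class Ms4a7 was at 209 CPM in NTT against 207 CPM in RTT (log2 −0.013). After thinning, 47.8% of RTT Infl_Mono cells had no Ms4a7 UMI and 35.9% had 6 or more, against 78.3% and 0.836% in NTT.

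**Figure D3:**
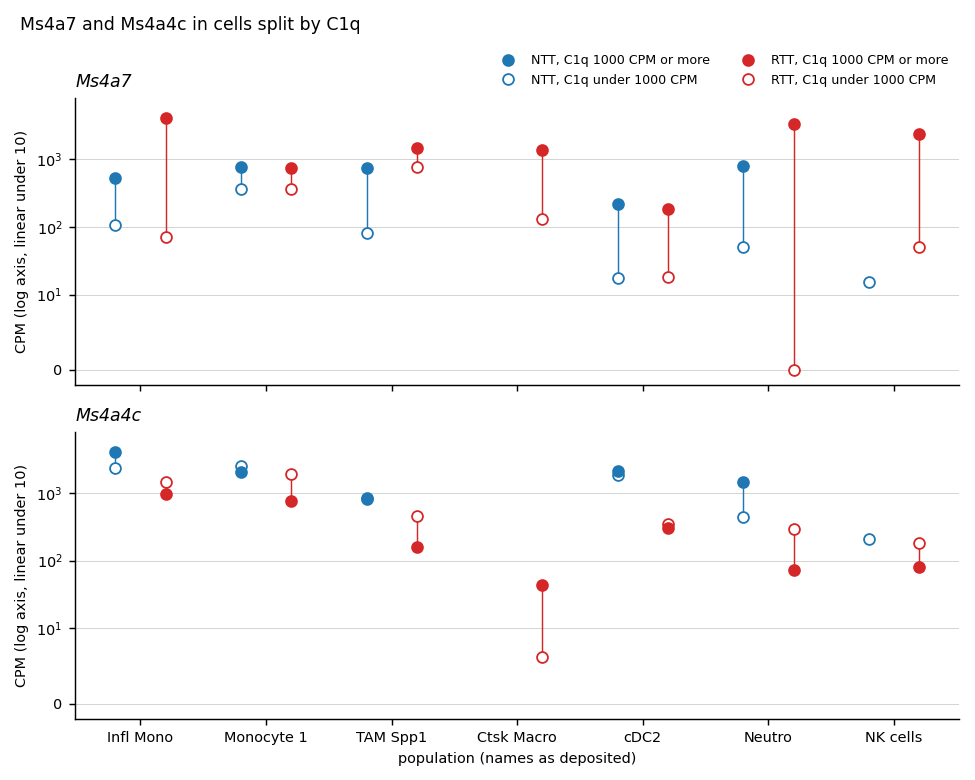
Levels of Ms4a7 and Ms4a4c in CPM (log axis, linear under 10) in cells at or above 1000 CPM of C1qa, C1qb and C1qc together (filled) and in cells under it (open), by population and library, for sets of at least 5 cells. In RTT Infl_Mono, Ms4a7 was at 4107 CPM in C1q-high and 72.0 CPM in C1q-low cells.

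Other populations split in the same direction. TAM_Spp1 cells of RTT held 1492 CPM of Ms4a7 when C1q was high (468 of 719 cells) and 764 CPM when it was low, against 751 CPM (59 of 193 cells) and 81.1 CPM in NTT. The RTT level in TAM_Spp1 was therefore higher on both sides of the limit. Neutro cells of RTT held 3295 CPM in 16 C1q-high cells and no Ms4a7 UMI in the other 13, for which 3 UMIs would be 88.1 CPM. NK cells of RTT held 2361 CPM in 8 C1q-high cells and 50.1 CPM in the rest. Ms4a7 also followed C1q in amount. The number of Ms4a7 UMIs per C1qa UMI was 0.375 in RTT TAM_C1q, 0.450 in RTT Infl_Mono, 0.440 in RTT NK cells and 0.360 in RTT Neutro, and was lower in RTT Monocyte_1 (0.167). In NTT it was 0.291 in TAM_H2Ab1, 0.298 in TAM_cycling and 0.184 in Infl_Mono. No doublet caller was run, and the part of free RNA and of droplets with more than 1 cell in these values was not tested.

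Ms4a4c split differently with C1q. In NTT Infl_Mono it was at 4059 CPM in C1q-high cells and 2361 CPM in C1q-low cells. In RTT Infl_Mono the order was the opposite, with 950.2 CPM and 1473 CPM. In TAM_Spp1 the NTT values were close (848 and 819 CPM), and the RTT values were 156 CPM in C1q-high and 455 CPM in C1q-low cells.

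Over all cells, the 3 Ms4a6 genes differed less between the tumours than Ms4a4c and Ms4a7, and none was called. Ms4a6b was at 892 CPM in NTT and 678 CPM in RTT (log2 −0.40, −0.42 to −0.37), Ms4a6c at 1271 and 900.4 CPM (log2 −0.50, −0.52 to −0.47), and Ms4a6d at 1640 and 1518 CPM (log2 −0.11, −0.13 to −0.09). Among populations of at least 50 cells, all 3 were highest in Infl_Mono in both libraries. In NTT Monocyte_1 came next for each. In RTT, TAM_C1q took the third place for Ms4a6b (912 CPM) and Ms4a6c (1118 CPM) and second for Ms4a6d (2058 CPM). The Ms4a6d level of 2228 CPM in RTT Infl_Mono joined 2669 CPM in C1q-high and 1229.5 CPM in C1q-low cells, so the C1q-low cells lay below TAM_C1q.

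Ms4a6b, which has been described in T cells as well as in myeloid cells, went in different directions by population. In TAM_cycling it was at 304 CPM in NTT and 668 CPM in RTT (log2 1.14, 1.01 to 1.26), and the thinned share of cells with a UMI was 41.7% and 67.5%. In cDC2 it was at 738 CPM in NTT and 158 CPM in RTT (log2 −2.22, −2.39 to −2.06), with thinned shares of 56.7% and 22.5%. TAM_Spp1 (624 and 618 CPM) and Infl_Mono (1426 and 1328 CPM) had intervals that included 0. By class it was higher in RTT macrophages (532 and 716 CPM, log2 0.43) and lower in RTT dendritic cells (450.4 and 136 CPM, log2 −1.73). It was also found under the NK cells label, which holds T-cell markers too, at 713 CPM in NTT with a UMI in 66.5% of thinned cells. T and NK cells under this label were not separated. Ms4a6c was found in 5.49% and Ms4a7 in 3.05% of the same cells, whose median was 5359 UMIs.

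Ms4a6c was close between the tumours in macrophages (1032 and 935 CPM, log2 −0.14, −0.18 to −0.11). TAM_Spp1 held 976 CPM in NTT and 1013 CPM in RTT (log2 0.05, −0.05 to 0.15), and TAM_cycling 900.3 and 885 CPM (log2 −0.03, −0.10 to 0.05). It was lower in RTT in monocytes (1902 and 1590 CPM, log2 −0.26) and in cDC2 (1031 and 506 CPM, log2 −1.03, −1.13 to −0.92). NK cells went the other way at a low level, with 45.2 CPM in NTT and 133 CPM in RTT (log2 1.56, 0.98 to 2.12). In C1q-low NK cells the levels were 45.3 and 87.6 CPM (log2 0.95, 0.25 to 1.62), under 2-fold.

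Ms4a6d was split by class. It was lower in RTT monocytes (2669 and 2023 CPM, log2 −0.40, −0.46 to −0.34) and higher in RTT macrophages (1163 and 1608 CPM, log2 0.47, 0.43 to 0.50), with dendritic cells at 549 and 566 CPM (log2 0.04, −0.05 to 0.14). TAM_Spp1 did not share the macrophage difference (1710 and 1691 CPM, log2 −0.02), while TAM_cycling did (903 and 1326 CPM, log2 0.55). None of these was 2-fold. In C1q-low Infl_Mono cells, though, Ms4a6d was at 2511 CPM in NTT and 1229.5 CPM in RTT (log2 −1.03, −1.23 to −0.84), past 2-fold, against −0.37 in all Infl_Mono cells, and in C1q-low monocytes as a class the ratio was −0.64. In NK cells Ms4a6d was at 88.2 and 179 CPM (log2 1.02), and the C1q-low ratio was 0.39 with an interval that included 0 (−0.18 to 0.94).

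The small dendritic populations also moved when C1q-high cells were left out. In DC3, which then held 131 NTT and 48 RTT cells, the ratio of Ms4a6b went from −0.68 to −1.16 (−2.42 to −0.094), that of Ms4a6c from 0.15 to −1.20 (−2.15 to −0.36), that of Ms4a6d from 0.45 to −1.17 (−2.22 to −0.26) and that of Ms4a7 from 1.72 to −1.46 (−3.81 to 0.22). These DC3 values rest on few UMIs. The C1q-low RTT levels were 39.5, 64.1, 54.3 and 14.8 CPM in that order, where 3 UMIs would be 14.8 CPM. In cDC1 the ratio of Ms4a6d went from 0.33 to 1.34 (0.44 to 2.27), and that of Ms4a7 from 0.77 to 1.16 (−0.38 to 2.79). Levels there were low too, at 29.4 (NTT) and 74.3 CPM (RTT) for Ms4a6d and 11.4 and 25.6 CPM for Ms4a7. In C1q-low cDC1, 3 UMIs would be 4.90 CPM in NTT and 7.69 CPM in RTT. In NK cells Ms4a7 went from 4.57 to 1.73 (0.68 to 2.75). The cDC2 results for Ms4a4c, Ms4a6b and Ms4a6c changed little, at −2.40, −2.28 and −1.13, while Ms4a7 in cDC2 went from 0.58 to 0.049 (−0.69 to 0.80). In Infl_Mono, Ms4a6b and Ms4a6c turned from −0.10 and −0.19 to 0.030 and 0.075, both with intervals that included 0.

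Some populations were present in numbers in 1 tumour only. TAM_C1q had 17 cells in NTT, with 262 CPM of Ms4a4c and 3089.8 CPM of Ms4a7, against 70.2 and 3826 CPM in the 2001 RTT cells. TAM_H2Ab1 had 36 cells in RTT, with 952 CPM of Ms4a4c and 4193 CPM of Ms4a7, against 751 and 2872 CPM in NTT. The RTT value of Ms4a4c was above the NTT value here, and it rests on those 36 cells. Macro had 26 RTT cells, with Ms4a4c at 692 CPM against 686 CPM in NTT. Ctsk_Macro, with 280 cells in RTT and none in NTT, carried osteoclast markers (48651 CPM over 4 genes, among them the protease cathepsin K). All 5 members were lower there than in TAM_Spp1, TAM_cycling and TAM_C1q of RTT, with Ms4a4c at 14.995 CPM, Ms4a6b at 84.8 CPM, Ms4a6c at 133 CPM, Ms4a6d at 354 CPM and Ms4a7 at 422 CPM. After thinning, 40.3% of Ctsk_Macro cells held none of the 5. The 61 cells of Ctsk_Macro with high C1q held higher levels, with Ms4a7 at 1348 CPM against 129.7 CPM, and Ms4a6b at 327 CPM against 8.41 CPM.

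Cells often held more than 1 member, and each member was common by itself. In NTT Monocyte_1 the thinned shares were 92.1% for Ms4a4c, 88.0% for Ms4a6b, 96.5% for Ms4a6c, 95.6% for Ms4a6d and 51.5% for Ms4a7. The shares below were not compared with those expected from the single genes, so they do not show linked expression. After thinning, 40.6% of NTT Monocyte_1 cells held a UMI of all 5 genes and 46.5% of 4. In RTT Monocyte_1 the shares were 26.5% and 49.0%. TAM_C1q cells of RTT mostly held 4 members (61.2%), and only 7.72% held all 5. Ms4a4c and Ms4a7 were found in the same cell in 60.9% of NTT TAM_H2Ab1 cells, in 47.3% of NTT and 26.5% of RTT Monocyte_1 cells, and in 46.6% of NTT and 10.8% of RTT TAM_cycling cells. In cDC2, the share of cells with 4 members was 32.2% in NTT and 4.95% in RTT, and the share with none was 8.52% and 13.9%.

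**Figure D4:**
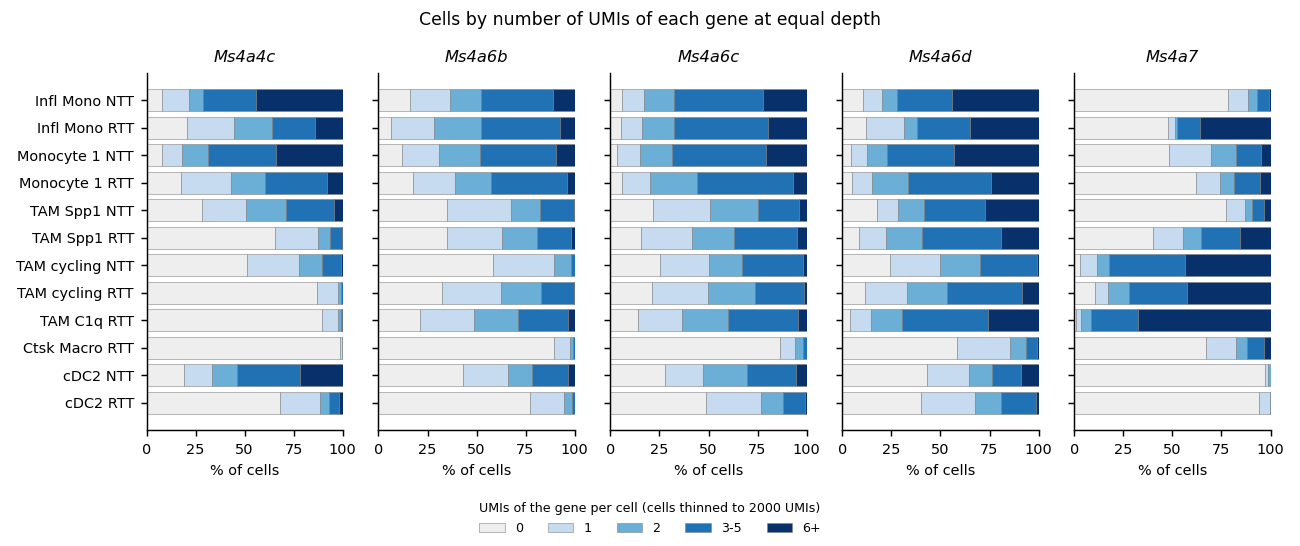
Percent of cells (horizontal axis, stacked bars) by the number of UMIs of each of the 5 members after thinning each cell to 2000 UMIs, by population and library, with darker blue for more UMIs. In RTT Infl_Mono, Ms4a7 was at 0 UMIs in 47.8% of cells and at 6 or more in 35.9%.

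The libraries differ in the cells they hold, which weighs on values over all cells and over a class. Infl_Mono and Monocyte_1 gave 16.0% and 27.6% of NTT UMIs but 1.32% and 1.18% of RTT UMIs, while TAM_C1q gave 0.699% in NTT and 40.8% in RTT. Accordingly, Ms4a4c UMIs came mostly from Monocyte_1 (40.4%) and Infl_Mono (31.9%) in NTT. In RTT they came from TAM_C1q (20.9%), TAM_cycling (16.6%), TAM_Spp1 (16.5%) and cDC2 (14.2%). Ms4a7 UMIs came from TAM_H2Ab1 (37.1%), TAM_cycling (28.1%) and Monocyte_1 (20.8%) in NTT, and from TAM_C1q (61.3%) and TAM_cycling (28.1%) in RTT.

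**Figure D5:**
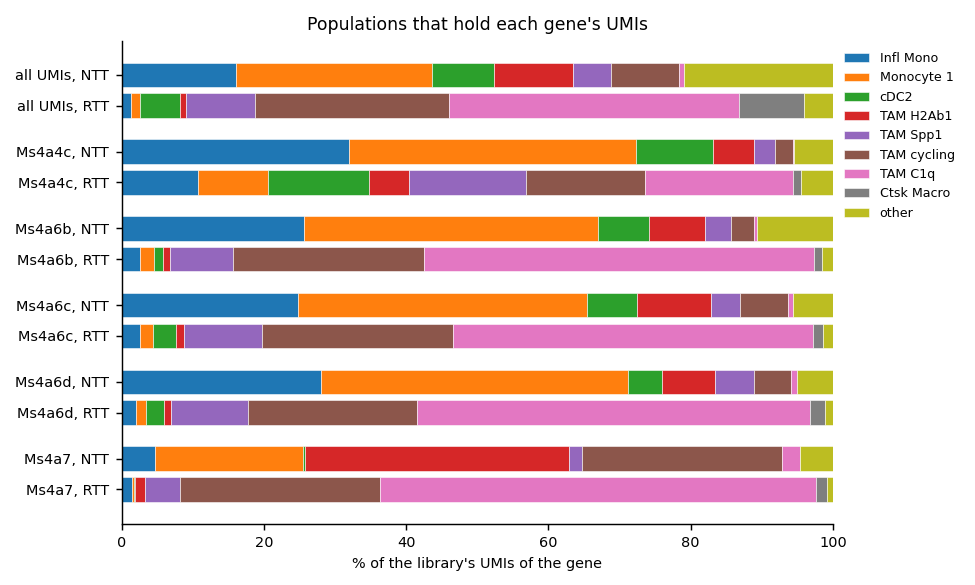
Percent of the UMIs of each member, and of all UMIs, that came from each population in the NTT and the RTT library (stacked bars). Monocyte_1 and Infl_Mono make up 40.4% and 31.9% of Ms4a4c UMIs in NTT, and TAM_C1q makes up 61.3% of Ms4a7 UMIs in RTT.

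The difference over all cells was divided into a part from the shares of the populations and a part from levels within them, at the mean of both libraries' weights. For Ms4a4c, −776 of −1339.7 CPM (57.9%) came from shares and −564 CPM from levels within populations. For Ms4a7, 1078 of 1675 CPM (64.3%) came from shares and 597 CPM from within. The largest parts from within were 227 CPM in Infl_Mono, where the difference lay in C1q-high cells, and 153 CPM in TAM_C1q, which had 17 NTT cells. For Ms4a6c the part from shares was 70.1%. For Ms4a6b it was 119% and for Ms4a6d 129%, so that the part from within populations had the opposite sign to the difference (39.7 CPM and 35.2 CPM). That sign turned with NTT shares as weights, at −102 CPM for Ms4a6b and −185 CPM for Ms4a6d.

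The genes most like each member were ranked by Pearson's r of log2(CPM + 1) over 21 profiles (a population in a library, 11 from NTT and 10 from RTT). These profiles share 2 libraries, their depth and their population labels, so r is a description. Of the nearest 5 genes by Pearson's r, Spearman's rho shared 1 for Ms4a4c, 2 for Ms4a6b and for Ms4a6c, 3 for Ms4a6d and 4 for Ms4a7. Ms4a7 was closest to C1qc (r = 0.98, with 0.99 in NTT and 0.97 in RTT alone), C1qa (0.97), C1qb (0.96) and the chemokines Ccl2 (0.96) and Ccl12 (0.95). Ms4a4c was closest to Slfn1 (0.93, with 0.76 in NTT and 0.95 in RTT), Zbp1 (0.93), a sensor of Z-form nucleic acid, Parp14 (0.91), Ifi204 (0.89), a DNA sensor of the interferon-inducible family, and Oas3 (0.89), an antiviral RNA sensor. Ms4a6c was closest to Fcgr1 (0.96), the high-affinity IgG receptor, and Ctss (0.95), a lysosomal protease. Ms4a6d was closest to Fcgr3 (0.95), a low-affinity IgG receptor, Lrp1 (0.95) and Itgam (0.95), the integrin chain CD11b. Lgals8 (0.87), a galectin, was among the genes most like Ms4a6b. Among the members, Ms4a6c and Ms4a6d were the most alike (r = 0.92), Ms4a6b and Ms4a6c were at 0.67, and Ms4a4c and Ms4a7 were at −0.01.

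Of 19 other genes listed from the MS4A and TMEM176 families, 8 were in the matrix and 6 passed the minimum of 500 UMIs over all cells. Of these, 1 was called higher and 2 lower, with a median log2 ratio of −0.67 beside 0.10 for all genes tested. Ms4a4b, a gene of T and NK cells, was at 187 CPM in NTT and 14.9 CPM in RTT (log2 −3.65), and under the NK cells label at 2122 and 1028 CPM. Ms4a8a was at 66.9 and 5.12 CPM (log2 −3.71), and Ms4a14 at 7.74 and 21.4 CPM (log2 1.47). Ms4a4a was at 70.8 and 35.8 CPM (log2 −0.98). Tmem176a (432 and 339 CPM) and Tmem176b (549 and 608 CPM), relatives of the MS4A genes, were not called. Among dendritic cells, Tmem176a was at 1161 (NTT) and 904 CPM (RTT) in DC3, 250 and 321 CPM in cDC2, and 10.7 and 14.5 CPM in cDC1. In TAM_cycling it was at 1555 and 384 CPM. In macrophages, 3 of 6 were called lower and 0 higher, with a median of −1.003 beside 0.06 for all genes. In monocytes 2 of 5 were called higher and 2 lower, with a median of −0.90 beside −0.05, and in dendritic cells 0 of 2 were called either way, with a median of −0.24 beside 0.06.

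Of 7 genes tied to MS4A proteins in macrophages, 6 were in the matrix and 5 passed the minimum, with 1 called higher, 1 lower and a median of 0.18 beside 0.10. Trem2, a lipid-sensing receptor of macrophages and microglia, was at 86.4 CPM in NTT and 739 CPM in RTT (log2 3.10), and at 136 and 817 CPM in macrophages (log2 2.59). Its adaptor Tyrobp was at 3640.4 and 4115 CPM (log2 0.18). Il1b, an inflammatory cytokine, was at 2545 and 1066 CPM (log2 −1.26). Of the 12 interferon-stimulated genes listed, 11 were called lower in RTT over all cells (median −2.98), 11 in macrophages (−2.40), 12 in dendritic cells (−2.47) and 2 in monocytes (−0.23). In the same order, the shares of all genes called lower were 9.6%, 6.18%, 7.56% and 6.74%. Ms4a4c was also called lower over all cells and in each class, while in monocytes only 2 of the 12 were, Irf7 (−1.02) and Ly6a (−1.48). A link between Ms4a4c and this list was not tested. The monocyte class had a smaller drop than its main parts. The median of the list was −0.54 in Infl_Mono (2 called lower) and −0.59 in Monocyte_1 (4 called lower and 1 higher), beside −0.05 and −0.06 for all genes there. Shares of all genes called were not computed for single populations.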

How the data were processed

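The authors processed the reads with Cell Ranger 6.1.1 on mm10 and deposited raw UMI counts per gene and cell with a table of cell names and population labels. The deposited counts were used unscaled. Totals recomputed per cell equalled the deposited ones in all 7815 cells. Members and gene lists were chosen with earlier results of these data known. The genes named are the 5 members, the family, partner and interferon lists, and genes from the 5 most like each member, of which 1 is not reported here. Counts were summed by population and library and divided by all UMIs there (CPM). Ratios have exact binomial intervals, levels exact Poisson intervals and shares exact Clopper-Pearson intervals, all for counting error only. Genes needed 500 UMIs over all cells and 200 within a class or population. A fold needs a count above 0, and a count of 0 was set to 3. No doublet caller was run. Alternative scalings came from edgeR 4.0.16 (TMM) and DESeq2 1.42.0 (size factors) in R 4.3.3. All else used Python 3.11.15, numpy 2.4.6, scipy 1.17.1, pandas 2.3.3 and matplotlib 3.10.9. Code was tested on simulated data. Columns of values from other samples were 0.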

Additional observations from a re-analysis of the deposited data

Results flagged for a closer look

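Ms4a6b and Ms4a6c went in opposite directions in different populations, by more than 0.5 on the log2 scale with intervals that exclude 0 on both sides. Ms4a6b was higher in RTT in TAM_cycling (log2 1.14) and lower in cDC2 (log2 −2.22). Ms4a6c was higher in RTT in NK_cells (log2 1.56) and lower in cDC2 (log2 −1.03). With 1 library per group, the difference between populations was not tested. In NK_cells without C1q-high cells, the Ms4a6c ratio was 0.95 (0.25 to 1.62). In cDC2, 12 of 12 genes of the interferon list were also called lower, with a median of −2.85 beside 0.06 for all genes there. The share of all genes called lower was 7.56% in dendritic cells as a class and was not computed for cDC2 alone. A link between this list and the 2 Ms4a6 genes was not tested.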

How the results depend on the processing

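Ratios over all cells kept their direction in every alternative, except Ms4a6d without C1q-high cells, and the cause was not tested. That alternative left out C1q-high cells only under the monocyte, dendritic, Neutro and NK labels. All macrophages were kept, among them 1993 C1q-high TAM_C1q cells of RTT, so its values over all cells still include most C1q-high cells of RTT. Ms4a4c (log2 −3.43) was −3.20 as a mean of per-cell CPM, −3.50 in cells with at least 1500 genes, −3.25 in cells thinned to 2000 UMIs and −3.20 without C1q-high cells. Ms4a7 (1.55) was 1.52 with TMM and with DESeq2 scaling, 2.08 per cell, 1.48 at 1500 genes, 2.09 thinned, 1.74 without cells above the 98th percentile of UMIs and 1.46 without C1q-high cells. In the same order, Ms4a6b (−0.40) was −0.43 by both scalings, −0.51 per cell, −0.48 thinned, −0.44 below the percentile and −0.078 without C1q-high cells. Ms4a6c (−0.50) was −0.53 by both scalings, −0.54, −0.52, −0.52 and −0.20. Ms4a6d (−0.11) was −0.14 by both scalings, −0.23, −0.26, −0.15 and 0.24, and −0.082 at 1500 genes. In it, 912 NTT cells (874 of them monocytes) and 192 RTT cells (104 of them monocytes) were left out. Without C1q-high cells, Ms4a7 in monocytes turned from 1.82 to −0.013, and members called in monocytes went from 1 to 0 in each direction. The per-cell mean also left 0 called lower there. By population, an alternative chosen after seeing the data, Ms4a7 turned to −0.57 in Infl_Mono and −1.46 in DC3 (−3.81 to 0.22). Since Ms4a7 followed C1q, a fall of its ratio in this alternative was partly set by the choice of cells.

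The part of the difference from population shares moved with the weights. With NTT and then RTT shares as weights it was 42.0% and 73.8% for Ms4a4c, 52.6% and 185% for Ms4a6b, 53.2% and 87.0% for Ms4a6c, −51.1% and 309% for Ms4a6d, and 57.6% and 71.1% for Ms4a7. With a minimum of 50 UMIs, 1059 genes were called higher and 1382 lower over all cells, 398 and 692 in monocytes, 628 higher in macrophages, and 594 and 658 in dendritic cells. These replace 672 and 789, 158 and 359, 410.0, and 213 and 333. No paired analysis was possible because each group has 1 library. No replicate could be left out for the same reason. Depth limits low values most, as in cDC1 and DC3.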
